A study of Mus musculus with 48 samples.

Results

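Arntl, Clock and Npas2 encode the activators of the mammalian circadian clock, and their messenger RNA was followed through the day in the mouse pars tuberalis under 4 lighting conditions. They are 3 of the 18194 genes measured, chosen by name. Each is represented by its brightest probe set that carries a single gene symbol, with its other probe sets as a check.

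ARNTL (also called BMAL1) pairs with CLOCK or with NPAS2, and the pair binds E-boxes to drive the Per, Cry, Nr1d1 and Nr1d2 genes. PER and CRY proteins repress the pair, whereas the REV-ERB proteins (encoded by Nr1d1 and Nr1d2) repress, and ROR proteins activate, transcription of Arntl through elements called ROREs. The pars tuberalis, the part of the pituitary around its stalk, carries melatonin receptors, reads the length of the night through them, and controls seasonal hormone output through thyrotropin.

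All animals were male CBA/N mice, and each array measured 1 pool of tissue from 25 mice, punched from frozen brain slices with a needle of 0.5 mm. Long days (16 h of light) were given for 2 weeks after 3 weeks of short days. In the advance condition, on the first long day, lights came on at ZT16 of the short-day cycle, ahead of the usual dawn, and in the delay condition the dark period began at ZT16 in place of ZT8. Short days (8 h of light) were the comparison. Every condition had 12 arrays, 2 at each of 6 time points 4 h apart. Mice were 8 weeks old in both chronic conditions and 6 weeks old in both first-day conditions, so comparisons of a first day with short days also compare ages. ZT counts hours from lights-on, in both first-day conditions by the lights-on of the preceding short-day cycle. Lights-on stood at clock hour 3 under long days and at clock hour 7 under short days, so a ZT in long days falls 4 h earlier by the clock. The 2 arrays of a time point come from a repeat of the entire experiment, according to the design text.

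Medians of the 48 arrays were near equal, from 6.98 to 7.03 on the log2 scale. Of 6 listed markers of the pars tuberalis 5 were measured, among them Cga, the alpha subunit of the glycoprotein hormones, with a condition median of at least 13.55 on the log2 scale. Snap25, a synaptic protein of neurons, had condition medians from 12.34 to 12.63, so the punches also held brain tissue, and in such bulk samples fewer cells of a type and less RNA per cell cannot be told apart. The pituitary hormone Prl ranged from 5.88 to 12.24 across the long-day arrays and from 5.41 to 11.06 across the short-day arrays. Matched to their short-day course, 19 other clock genes placed the long-day arrays numbered 1 at ZT16 and ZT20 at short-day ZT 7.7 and 12.2. They placed the arrays numbered 2 at the same labels the other way round, at 11.9 and 7.9. The libraries labelled long-day ZT16 replicate 2 and ZT20 replicate 2 therefore go against the order of their labels. The main long-day results on the 3 genes and the peaks of their targets are given with and without them. These 19 genes are the E-box targets and the REV-ERB and ROR genes analysed below. Target results without both arrays are therefore no independent check of target phase.

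The sequences around the starts of these genes are shown because Arntl carries the kind of element through which REV-ERB and ROR proteins act, while some of the listed targets carry the element bound by the activators themselves. Each is a stretch of 30 bases from RefSeq (GRCm38.p6), written 5′ to 3′ on the gene's own strand, with the motif in capitals. The promoter windows searched run from 250 bases before to 50 bases after an annotated start, on both strands. For Arntl the 2 copies of AAAGTAGGTNA lie at chr7:113207501-113207511 and chr7:113207537-113207547 on the plus strand. The last base of the first copy is the annotated start at 113207511, and the second copy lies after it. Both copies lie after the other annotated start of Arntl, at 113207465. The second copy overlaps an AGGTCA, the half-site that nuclear receptors of this kind bind. For Clock the AGGTCA lies on the opposite strand, before the third of its annotated starts, and so reads TGACCT here.
Arntl, chr7:113207493-113207522: ttggtcggAAAGTAGGTTAgtggtgcgaca
Arntl, chr7:113207529-113207558: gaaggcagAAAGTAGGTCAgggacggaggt
Clock, chr5:76303600-76303629, minus strand: ttggcctcTGACCTgacagatgacagatca
Per1, chr11:69098771-69098800: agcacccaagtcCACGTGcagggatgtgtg
Cry1, chr10:85185097-85185126, minus strand: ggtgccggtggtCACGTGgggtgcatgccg
Ciart, chr3:95882327-95882356, minus strand: tgcatctagagtCACGTGttgccggtaagc

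AAAGTAGGTNA was spelled after the Arntl window had been read, and 0.0703% of all genes with a window of this length hold it. AGGTCA was held by 18.1% of those genes, the E-box CACGTG by 8.09% and the D-box TTATGTAA, bound by DBP, TEF and HLF, by 1.11%. No window of Arntl, Clock or Npas2 held CACGTG or TTATGTAA, and the window of Npas2 held none of the 4 motifs. Of 12 listed target genes of the activators with a window, 5 held CACGTG, namely Bhlhe41, Ciart, Cry1, Per1 and Tef. A match describes letters only and does not show binding.

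Arntl rose and fell through the day in every condition. Its group means spanned 2.49-fold under long days, 2.77-fold in advance, 2.31-fold in delay and 2.55-fold under short days. Variation over the 6 time points passed the test in all 4 conditions (limma, adjusted p = 1.07e-07 under long days, 3.09e-08 in advance, 4.22e-06 in delay and 1.87e-07 under short days). Without both arrays that go against their labels, long-day means spanned 2.56-fold and the adjusted p was 3.53e-11. Over all genes this test was passed by 1.63% under long days, 2.58% in advance, 1.52% in delay and 8.91% under short days.

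Under long days the Arntl arrays read 9.61 and 9.74 at ZT0, 9.77 and 9.71 at ZT4, 8.96 and 8.85 at ZT8, 8.64 and 8.21 at ZT12, 8.38 and 9.06 at ZT16, and 8.93 and 8.26 at ZT20. The highest values stood in the first hours of light, and the replicates of ZT16 and ZT20 lay far apart, with SDs of 0.48 at both. In advance they read 9.41 and 9.16 at ZT0, 8.55 and 8.55 at ZT4, 8.62 and 8.37 at ZT8, 8.94 and 8.94 at ZT12, 9.52 and 9.57 at ZT16, and 9.93 and 9.99 at ZT20. In delay they read 9.64 and 9.66 at ZT0, 9.15 and 9.15 at ZT4, 8.50 and 8.45 at ZT8, 8.70 and 8.69 at ZT12, 9.09 and 9.16 at ZT16, and 9.69 and 9.68 at ZT20. Both first-day conditions were high at ZT20 and low at ZT8, and only delay was still above 9 on both arrays at ZT4. Under short days the values were 9.21 and 9.29 at ZT0, 8.46 and 8.28 at ZT4, 8.45 and 8.55 at ZT8, 8.98 and 8.86 at ZT12, 9.53 and 9.55 at ZT16, and 9.74 and 9.71 at ZT20. There the arrays of ZT16 and ZT20, late in the long night, were all above those of any other time, and ZT4 and ZT8 overlapped at the bottom.

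Npas2, which can stand in for CLOCK as partner of ARNTL, had a dim probe set, with a mean of 5.96 over all arrays, below every array's median. Its group means spanned 2.26-fold under long days, 2.60-fold in advance, 2.99-fold in delay and 3.24-fold under short days, and variation over the day passed in all 4 (limma, adjusted p = 5.09e-07 under long days, 9.81e-11 in advance, 3.85e-09 in delay and 1.01e-09 under short days). The long-day span was again 2.26-fold without those 2 arrays, with an adjusted p of 9.37e-07.

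Under long days Npas2 read 6.23 and 6.34 at ZT0, 6.60 and 6.54 at ZT4, 5.95 and 5.99 at ZT8, 5.50 and 5.29 at ZT12, 5.60 and 5.86 at ZT16, and 5.66 and 5.59 at ZT20. In advance it read 6.31 and 6.57 at ZT0, 5.27 and 5.32 at ZT4, 5.39 and 5.31 at ZT8, 5.26 and 5.42 at ZT12, 6.09 and 6.01 at ZT16, and 6.59 and 6.77 at ZT20. The advance arrays of ZT4, ZT8 and ZT12 overlapped at the bottom, while the long-day minimum stood at ZT12 alone. In delay it read 6.80 and 6.90 at ZT0, 6.47 and 6.36 at ZT4, 5.21 and 5.32 at ZT8, 5.55 and 5.83 at ZT12, 5.96 and 5.96 at ZT16, and 6.19 and 6.57 at ZT20. Under short days it read 6.23 and 6.03 at ZT0, 5.14 and 5.17 at ZT4, 5.53 and 5.59 at ZT8, 5.70 and 6.08 at ZT12, 6.17 and 5.99 at ZT16, and 6.86 and 6.85 at ZT20. Its short-day maximum at ZT20 and minimum at ZT4 overlapped with no other time point.

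Clock varied little. Its group means spanned 1.36-fold under long days, 1.38-fold in advance, 1.29-fold in delay and 1.42-fold under short days. Daily variation passed in advance (limma, adjusted p = 0.00424) and under short days (0.0293), not under long days (0.0608) or in delay (0.364). The long-day call depends on the fit: the adjusted p was 0.0123 with the replicate number as a block, 0.00873 with that block within each condition and 0.0226 with a 24 h cosine, and it was 0.101 without both arrays that go against their labels. The short-day call was lost without the ZT4, ZT8 or ZT20 array numbered 1, with an adjusted p of up to 0.123.

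Clock arrays under long days read 10.26 and 10.46 at ZT0, 10.39 and 10.47 at ZT4, 10.07 and 10.24 at ZT8, 9.91 and 10.06 at ZT12, 10.05 and 10.14 at ZT16, and 10.06 and 9.95 at ZT20. In advance they read 10.20 and 10.12 at ZT0, 9.77 and 9.83 at ZT4, 9.87 and 9.82 at ZT8, 9.73 and 9.88 at ZT12, 10.27 and 10.27 at ZT16, and 10.17 and 10.29 at ZT20. Advance had the clearest separation, with all arrays of ZT16, ZT20 and ZT0 above all arrays of ZT4, ZT8 and ZT12. In delay the lowest, median and highest of the 12 arrays were 9.65, 10.03 and 10.28, and the arrays of ZT8 alone read 9.65 and 9.99. Under short days the lowest, median and highest were 9.63, 10.05 and 10.37. The replicates of ZT8 lay apart there, at 9.63 and 9.94, and the arrays of ZT8 overlapped with those of ZT4, and those of ZT12 with those of ZT16.

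**Figure D1:**
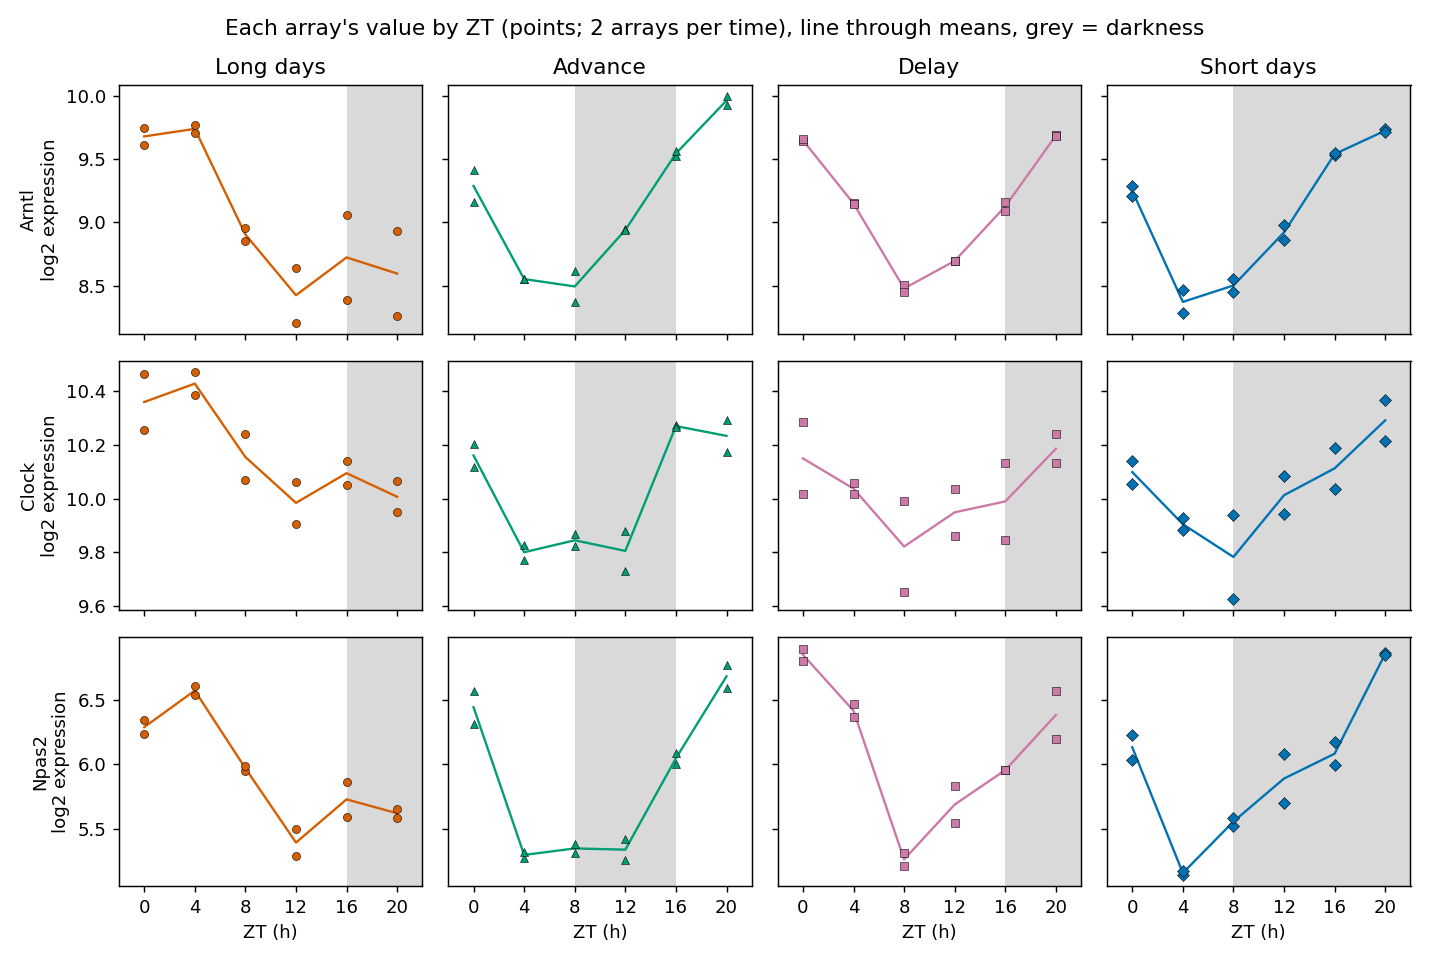
Log2 expression of Arntl, Clock and Npas2 (rows) against ZT in hours in long days, advance, delay and short days (columns), with 1 point per array, lines through the means of 2 arrays and darkness in grey. Arntl and Npas2 swing by more than Clock in every condition, and the long-day maximum lies at ZT4, against ZT20 under short days.

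Peaks of a fitted 24 h cosine placed the 3 genes close together within each condition. Under long days Arntl peaked at ZT 2.37 ± 0.44 (SE), Clock at ZT 2.78 ± 0.87 and Npas2 at ZT 2.81 ± 0.71. In advance the peaks were ZT 19.02 ± 0.39 for Arntl, ZT 19.5 ± 0.67 for Clock and ZT 20.5 ± 0.48 for Npas2. The Npas2 peak followed that of Arntl by 1.49 ± 0.62 h in advance, the widest gap among the 3 in any condition. Delay gave ZT 21.8 ± 0.46 for Arntl, ZT 21.7 ± 1.11 for Clock and ZT 22.9 ± 0.54 for Npas2. Short days gave ZT 18.6 ± 0.41 for Arntl, ZT 19.4 ± 0.82 for Clock and ZT 18.8 ± 0.55 for Npas2. By clock time the Arntl peak stood at hour 5.37 under long days, 2.02 in advance, 4.79 in delay and 1.65 under short days. Without the long-day ZT20 array numbered 2 the long-day Arntl peak moved to ZT 1.48, and without both arrays that go against their labels it lay at ZT 1.97, with Clock at ZT 2.40 and Npas2 at ZT 2.77.

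Amplitudes, the distance from mean to peak of the cosine, were for Arntl 0.66 under long days, 0.74 in advance, 0.62 in delay and 0.70 under short days, each ± 0.08 (SE). Those of Npas2 were 0.51, 0.76, 0.68 and 0.66 in the same order, each ± 0.09, and those of Clock 0.21, 0.27, 0.16 and 0.22, each ± 0.05. No amplitude differed from its short-day value by as much as 2 SE of the difference. The widest gap was that of Npas2 under long days, at -0.14 ± 0.13 against short days. The long-day amplitudes without those arrays were 0.76 for Arntl, 0.23 for Clock and 0.59 for Npas2.

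**Figure D2:**
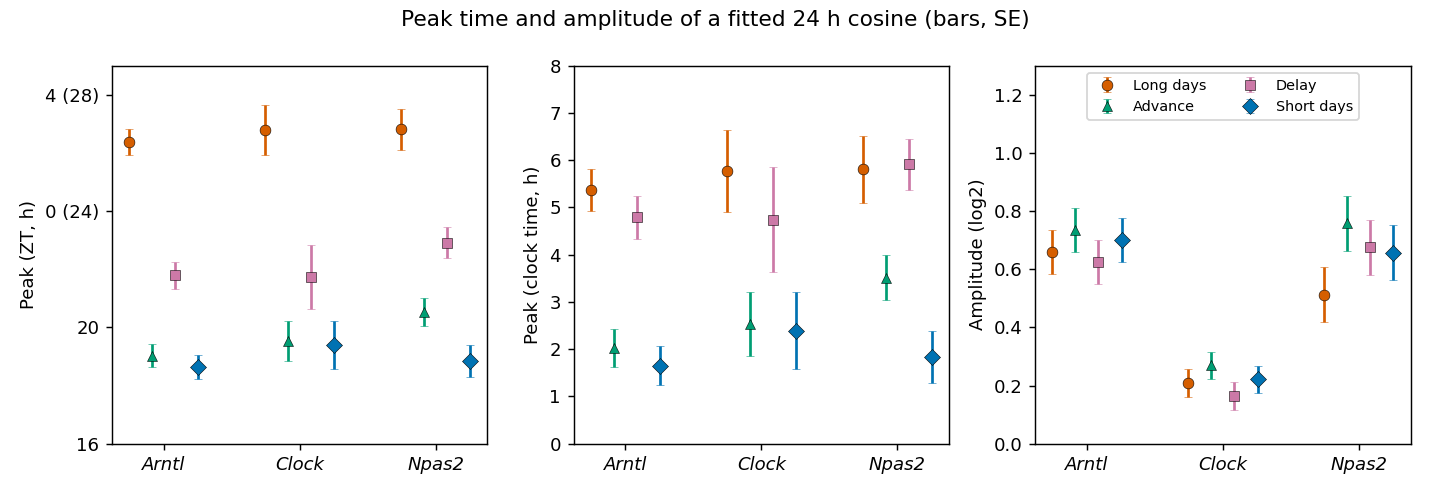
Peak time by ZT (left), peak time by clock hour (middle) and amplitude in log2 units (right) of the fitted 24 h cosine for each gene in long days, advance, delay and short days, with bars of 1 SE. Long-day peaks lie near ZT 2 to 3 and short-day peaks near ZT 19, while amplitudes of a gene stay within their errors of each other across most conditions. Clock hours of advance assume short-day lights-on at clock hour 7.

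The first comparison asks whether 2 weeks of long days changed the daily course of the activators. Matched by ZT, all 3 had a different course in long days from that in short days (limma, adjusted p = 3.08e-09 for Arntl, 0.00806 for Clock and 7.58e-11 for Npas2), against 4.3% of all genes. At ZT4 Arntl read 9.77 and 9.71 in long days, against 8.46 and 8.28 in short days. It was thus 2.58-fold higher in long days (log2 difference 1.37 ± 0.15 SE, adjusted p = 1.56e-07), where 22.2% of all genes passed. At the same time Npas2 read 6.60 and 6.54 in long days, against 5.14 and 5.17 in short days, a difference of 1.41 ± 0.13 (adjusted p = 2.65e-09). Clock read 10.39 and 10.47 in long days, against 9.93 and 9.88 in short days, a difference of 0.52 ± 0.11 (adjusted p = 9.79e-04). The arrays of the 2 conditions did not overlap for any of the 3 genes at ZT4. Lack of overlap between 2 arrays and 2 says little, here or in the comparisons below, and its share over all genes was not counted. At ZT4 the advance arrays also lay apart from the short-day arrays for all 3 genes, without a call (limma, adjusted p = 0.434 for Arntl, 0.555 for Clock and 0.472 for Npas2).

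At ZT20 the order was turned. Arntl read 8.93 and 8.26 in long days, against 9.74 and 9.71 in short days, a difference of -1.13 ± 0.15 (adjusted p = 4.61e-06), and the 8.93 of the array that matches its label lay below both short-day arrays. Npas2 read 5.66 and 5.59 in long days, against 6.86 and 6.85 in short days, a difference of -1.23 ± 0.13 (adjusted p = 4.67e-08). Clock read 10.06 and 9.95 in long days, against 10.37 and 10.21 in short days, and did not pass (-0.28 ± 0.11, adjusted p = 0.0745). Without both arrays that go against their labels, with 1 long-day array left, the differences were -0.79 ± 0.12 for Arntl (limma, adjusted p = 6.81e-05), -1.20 ± 0.15 for Npas2 (7.90e-06) and -0.23 ± 0.14 for Clock (0.322). The lone array is assumed there to vary like those of other groups. At this time 19.6% of all genes passed.

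Part of the ZT difference is the way ZT is counted, since lights-on moved by 4 h on the clock. Matched by clock time, the courses of Arntl (limma, adjusted p = 6.22e-04) and Npas2 (2.59e-05) still differed between long and short days and that of Clock did not pass (0.637), against 0.467% of all genes. The Arntl peak was 3.72 ± 0.60 h later by the clock in long days (95% interval 2.54 to 4.90), that of Npas2 3.97 ± 0.90 h (2.21 to 5.73) and that of Clock 3.39 ± 1.20 h (1.05 to 5.73). Leaving out both arrays that go against their labels, these were 3.32 ± 0.37 h for Arntl (2.58 to 4.05), 3.93 ± 0.86 h for Npas2 (2.24 to 5.62) and 3.01 ± 1.18 h for Clock (0.70 to 5.31). The intervals come from the SE of the fitted peaks and are approximate. With a cosine in place of group means the clock-time difference held for Arntl (adjusted p = 0.0065) and missed the threshold for Npas2 (0.0748), and 0.297% of all genes passed.

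Counted from lights-off, no course differed between long and short days beyond the threshold. This match, chosen after seeing the data, gave adjusted p = 0.602 for Arntl, 0.866 for Clock and 0.387 for Npas2 (limma), and 0.275% of all genes passed. The unadjusted p was 0.0549 for Arntl, 0.358 for Clock and 0.0086 for Npas2, so a miss after adjustment does not show equal courses. Arntl peaked 10.4 h after lights-off in long days and 10.6 h after it in short days, a difference of -0.28 ± 0.60 h (95% interval -1.46 to 0.90). For Npas2 the peaks were 10.8 h after lights-off in both, with a difference of -0.03 ± 0.90 h (-1.79 to 1.73). Clock peaked 10.8 h after lights-off in long days and 11.4 h after it in short days, a difference of -0.61 ± 1.20 h (-2.95 to 1.73). The differences without those arrays were -0.68 ± 0.37 h for Arntl (-1.42 to 0.05), -0.07 ± 0.86 h for Npas2 (-1.76 to 1.62) and -0.99 ± 1.18 h for Clock (-3.30 to 1.31). None of the calls by ZT, by clock time or from lights-off changed without the 2 arrays that go against their labels. In that fit 978, 118 and 74 of all 18194 genes passed in the same order.

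**Figure D3:**
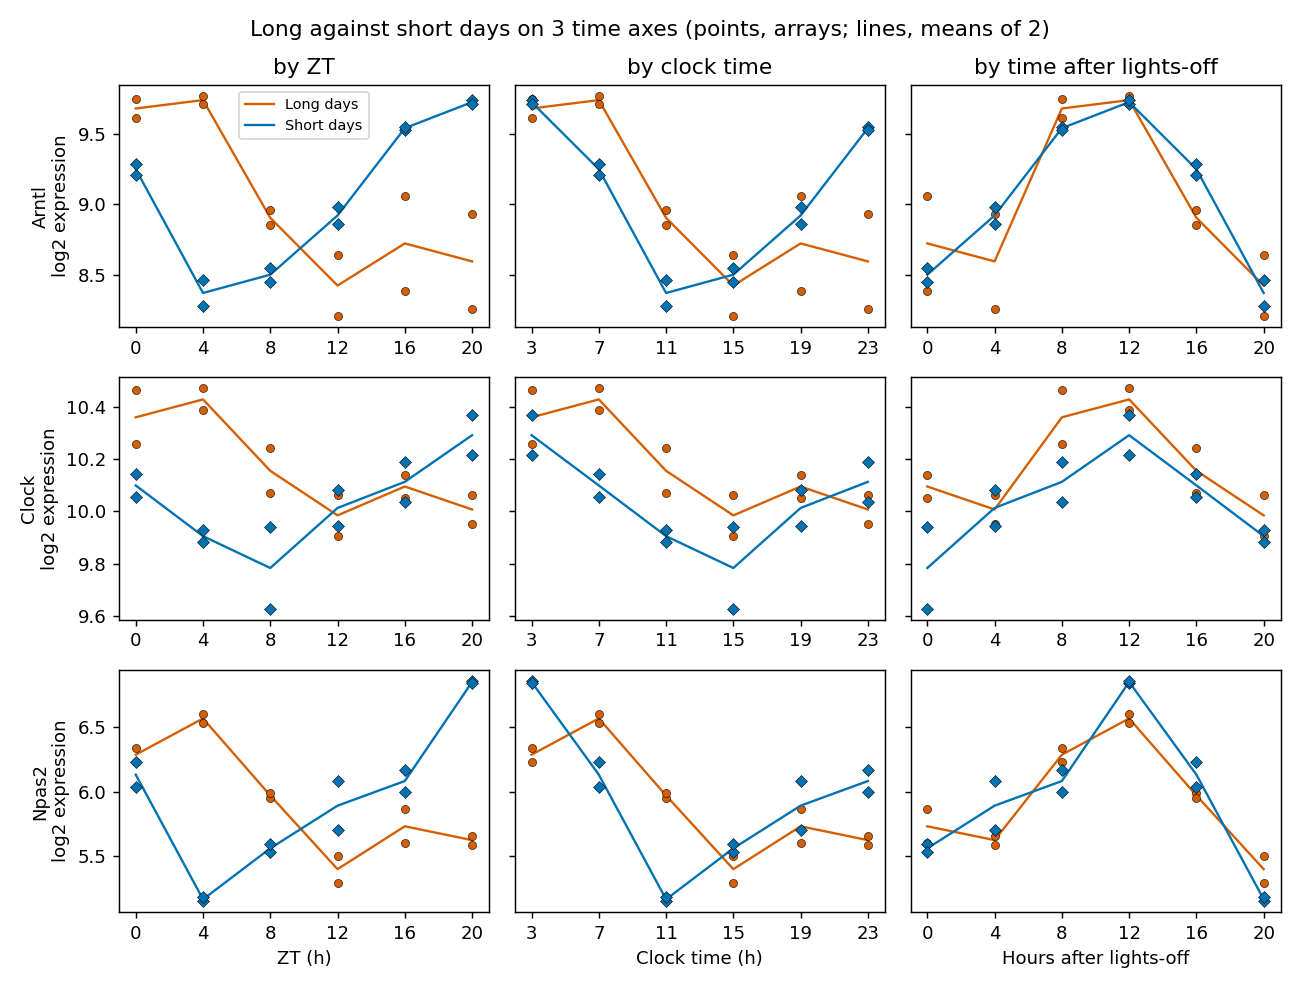
Log2 expression of Arntl, Clock and Npas2 (rows) in long and short days against ZT, clock time and hours after lights-off (columns), with 1 point per array and lines through means of 2. By ZT the curves cross, by clock time the long-day curves run about 4 h later, and from lights-off the maxima coincide at 12 h.

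The day means differed little on the main probe sets, and for all 3 genes some differences from short days depended on the probe set. Over the 12 arrays the day mean of Arntl was 9.01 in long days, 9.13 in advance and 9.13 in delay, against 9.05 in short days, and no difference from short days passed (limma, adjusted p between 0.303 and 0.651). The other, dimmer Arntl probe set was lower than in short days on both first days, with differences of -0.14 in advance (limma, adjusted p = 0.0275) and -0.27 in delay (5.66e-05), opposite in sign to the main one. Clock averaged 10.17 in long days, 10.02 in advance and 10.02 in delay, against 10.03 in short days. Its long-day mean was higher by 0.14 ± 0.05 (adjusted p = 0.0135), a call made for 46.7% of all genes. The 3 other Clock probe sets were higher in long days by 0.23, 0.29 and 0.34 (limma, adjusted p = 0.00572, 5.98e-06 and 2.50e-06). The ratio of the 3′ to the 5′ actin probe signal, a measure of RNA quality, was 1.65 ± 0.12 in long days and 1.89 ± 0.12 in short days (log2, SD, n = 12), and with it as a covariate the difference of the main probe set was 0.0054 (adjusted p = 0.963). The summed level of the 5 measured pars tuberalis markers ran from 27251 to 41796 in long days and from 11771 to 21809 in short days. Of these 5, 4 were called higher in long days (limma), against 17.6% of all genes, and the gap in medians was widest for Tshb. Tshb had medians of 14.11 in long days and 10.52 in short days, and Cga 13.83 and 13.84. The summed level of 9 neuronal markers ran from 27190 to 35674 in long days and from 26307 to 34584 in short days. The part of RNA quality and of these markers in the result was not tested. For advance and delay the main probe set gave differences of -0.01 from short days, while the 3 other Clock probe sets were higher on both first days, by 0.14 to 0.33. Npas2 averaged 5.93 in long days, 5.86 in advance and 6.09 in delay, against 5.95 in short days. In delay it was higher by 0.15 ± 0.05 (adjusted p = 0.0196), among 49.8% of all genes called in that comparison. The other Npas2 probe set was lower there by the same amount (-0.15), so the direction rests on the probe set. The call of the main probe set was also lost without the short-day ZT12 array numbered 1 or the delay ZT12 or ZT20 array numbered 2 (0.11 to 0.12). For advance 51.4% of all genes were called, none of them Arntl, Clock or Npas2.

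The next comparisons ask what the first long day did. In advance the daily course of none of the 3 differed from that in short days (limma, adjusted p = 0.932 for Arntl, 0.731 for Clock and 0.164 for Npas2), and 0.308% of all genes passed. The advance peak of Arntl was 0.37 ± 0.57 h later than in short days (95% interval -0.74 to 1.49), that of Clock 0.14 ± 1.06 h (-1.94 to 2.22) and that of Npas2 1.68 ± 0.73 h (0.25 to 3.11). For Npas2 the unadjusted p of the course was 8.65e-04, and without the short-day ZT12 or ZT16 array numbered 1 the adjusted p was 0.0424 or 0.0435. At ZT12 Npas2 read 5.26 and 5.42 in advance, against 5.70 and 6.08 in short days, without overlap (-0.55 ± 0.13, adjusted p = 0.0131, where 3.18% of all genes passed). This time point was chosen after its values were seen.

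The hours right after the early lights-on gave no call. From ZT16 to ZT20, the step into the extra light, Arntl changed by 0.23 ± 0.22 more in advance than in short days (limma, adjusted p = 0.886), Clock by -0.21 ± 0.16 (0.866) and Npas2 by -0.14 ± 0.18 (0.921). Only 0.22% of all genes passed. From ZT8 to ZT12, the step into the extra light of delay, the corresponding values were -0.20 ± 0.22 for Arntl (0.834), -0.10 ± 0.16 for Clock (0.895) and 0.09 ± 0.18 for Npas2 (0.923), and 0.0385% of all genes passed. Rorb, which encodes a member of the ROR family, was the member of its list that passed in the advance step (limma, a change 1.64 ± 0.20 higher in advance than in short days, adjusted p = 8.81e-06).

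In delay the courses of Arntl (limma, adjusted p = 0.0104) and Npas2 (3.68e-07) differed from those in short days, against 1.84% of all genes, and that of Clock did not pass (0.753). The delay peak of Arntl was 3.14 ± 0.62 h later than in short days (95% interval 1.92 to 4.35) and that of Npas2 4.07 ± 0.77 h (2.56 to 5.58). Clock had a difference of 2.34 ± 1.38 h (-0.36 to 5.05). Counted from lights-off, which came 8 h later in delay, Arntl peaked 5.79 h after it in delay and 10.6 h after it in short days. These cosine peaks draw on all 6 time points. By the design text, ZT0 and ZT4 come ahead of both the extra light and that lights-off.

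The delay arrays stood apart at the times ahead of the extra light. At ZT4 Npas2 read 6.47 and 6.36 in delay, against 5.14 and 5.17 in short days, 2.39-fold higher in delay (log2 difference 1.25 ± 0.13, adjusted p = 2.12e-07). Arntl read 9.15 and 9.15 in delay, against 8.46 and 8.28 in short days (0.78 ± 0.15, adjusted p = 3.50e-04). Neither gene's arrays overlapped, and 27.7% of all genes passed at this time. At ZT0 Npas2 read 6.80 and 6.90 in delay, against 6.23 and 6.03 in short days (0.72 ± 0.13, adjusted p = 2.87e-04), where 19% of all genes passed. Arntl at ZT0 read 9.64 and 9.66 in delay, against 9.21 and 9.29 in short days, also without overlap, and did not pass (0.40 ± 0.15, adjusted p = 0.0637). Its SE pools the spread of all 24 groups, among them the long-day ZT16 and ZT20 pairs, with SDs of 0.48. The median SD of its replicates was 0.01 in delay and 0.06 in short days. A fit of this difference without the 2 long-day arrays that go against their labels is not given, so the miss does not show equal levels. By the design text sampling in delay began at lights-on at ZT0, and the extra light began at ZT8. The titles give no day, and age and set of mice differ between the conditions as well, so these cannot be told apart. At ZT8, Arntl read 8.50 and 8.45 in delay, against 8.45 and 8.55 in short days, and the arrays overlapped. Npas2 read 5.21 and 5.32 in delay, against 5.53 and 5.59, without overlap (-0.29 ± 0.13, adjusted p = 0.111). Later differences from short days were -0.23 ± 0.15 at ZT12, -0.41 ± 0.15 at ZT16 and -0.04 ± 0.15 at ZT20 for Arntl (limma, adjusted p = 0.485, 0.0735 and 0.917). For Npas2 they were -0.20 ± 0.13, -0.13 ± 0.13 and -0.47 ± 0.13 (0.446, 0.568 and 0.0145). At these times 4.53%, 11.7% and 11.2% of all genes passed.

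**Figure D4:**
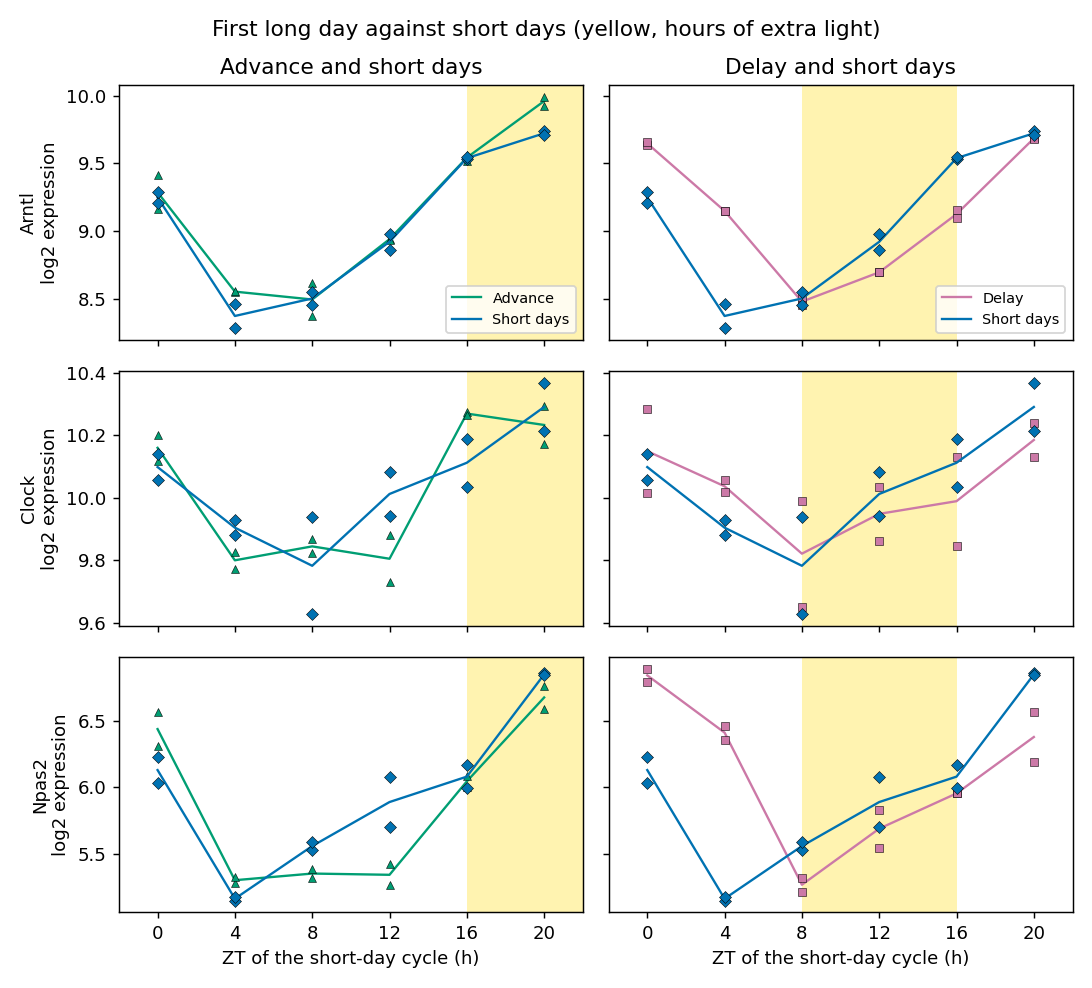
Log2 expression of Arntl, Clock and Npas2 (rows) by ZT of the short-day cycle for advance (left) and delay (right), each with short days, with 1 point per array, lines through means of 2 and the hours of extra light in yellow. Advance runs along the short-day curve for Arntl, while delay is above short days at ZT0 and ZT4 for Arntl and Npas2.

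Advance and delay mice were of the same age. Their courses differed for Arntl (limma, adjusted p = 0.0298) and Npas2 (4.80e-05) and did not pass for Clock (0.647), against 0.726% of all genes. The Arntl call was lost in 15 of 24 fits that left out 1 array of advance or delay, with an adjusted p of up to 0.102. All 24 fits kept the 2 long-day arrays that go against their labels, which enter the pooled spread of Arntl. The losses therefore do not show that the advance and delay arrays are themselves unsteady. With a cosine in place of group means the course difference missed the threshold for both Arntl (0.0705) and Npas2 (0.356), where 0.187% of all genes passed. By ZT the Arntl peak differed by -2.76 ± 0.61 h between advance and delay (95% interval -3.95 to -1.58) and the Npas2 peak by -2.40 ± 0.72 h (-3.81 to -0.99). At ZT4 Npas2 read 5.27 and 5.32 in advance, against 6.47 and 6.36 in delay (-1.12 ± 0.13, adjusted p = 5.71e-06), where 0.357% of all genes passed. Arntl read 8.55 and 8.55 in advance, against 9.15 and 9.15 in delay, and did not pass at this time (-0.60 ± 0.15, adjusted p = 0.0716). The same pooled spread enters that SE.

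The other probe sets bear on these values. Clock has 4 probe sets with its symbol alone, and 2 of the others were nearly as bright as the one used, which averaged 10.06. Their short-day cosine peaks ranged from ZT 15.7 to 19.4 over the 4 probe sets, so the Clock peak time is less certain than its SE. The other probe sets of Arntl (mean 6.84) and Npas2 (mean 5.73) passed no daily test in any condition (limma, adjusted p between 0.368 and 0.737 for Arntl and between 0.0977 and 0.929 for Npas2). Results on Arntl and Npas2 therefore each rest on 1 probe set.

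The list of genes that the activators drive through E-boxes held 16 genes, and 15 were analysed here. Their daily variation passed for 10 in long days, 12 in advance, 11 in delay and 13 in short days, against 1.63%, 2.58%, 1.52% and 8.91% of all genes in the same order. Without both arrays that go against their labels 11 passed in long days, against 407 of all 18194 genes in that fit. In all 4 conditions 10 of them passed. Among these, the earliest peak after that of Arntl was that of Nr1d1, which encodes REV-ERB alpha, at 6.93 h in long days, 7.37 h in advance, 7.77 h in delay and 6.56 h in short days. Per3, a member of the Period family, peaked 12.5 h after Arntl in long days, 12.1 h in advance, 13.1 h in delay and 12.4 h in short days. Cry1, which encodes the cryptochrome repressor, was the latest, at 18.5 h in long days, 20.0 h in advance, 19.9 h in delay and 19.6 h in short days. The median lag over the 10 genes was 11.3 h in long days, 11.6 h in advance, 12.1 h in delay and 10.7 h in short days. Without both arrays that go against their labels the long-day lag was 7.69 h for Nr1d1, 12.6 h for Per3 and 19.2 h for Cry1, with a median of 11.6 h.

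The peaks of the 10 targets were a median of 3.92 h later by the clock in long days than in short days, with a range of 2.63 to 4.87 h over the genes, and from lights-off the median difference was -0.08 h (-1.37 to 0.87). These medians were, without the same arrays, 3.58 h (2.89 to 4.72) and -0.42 h (-1.11 to 0.72). In delay the median was 4.10 h later than in short days (3.41 to 4.93), and in advance 0.77 h later (-0.0029 to 1.44). The delay peaks also draw on ZT0 and ZT4, ahead of the extra light. The tests of the course called 11 of 15 targets between long and short days by ZT (4.3% of all genes) and 9 by clock time (0.467%). From lights-off 0 were called (0.275%), and 7 had an unadjusted p below 0.05 (limma), as had 1541 of all 18194 genes. These 3 counts of calls come from all 48 arrays. Between advance and short days 0 of 15 were called by limma, against 0.308% of all genes. There 2 had an unadjusted p below 0.05, as had 1555 of all genes. Between delay and short days 11 were called (1.84% of all genes), and between advance and delay 8 (0.726%). All comparisons with short days share the same short-day arrays.

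**Figure D5:**
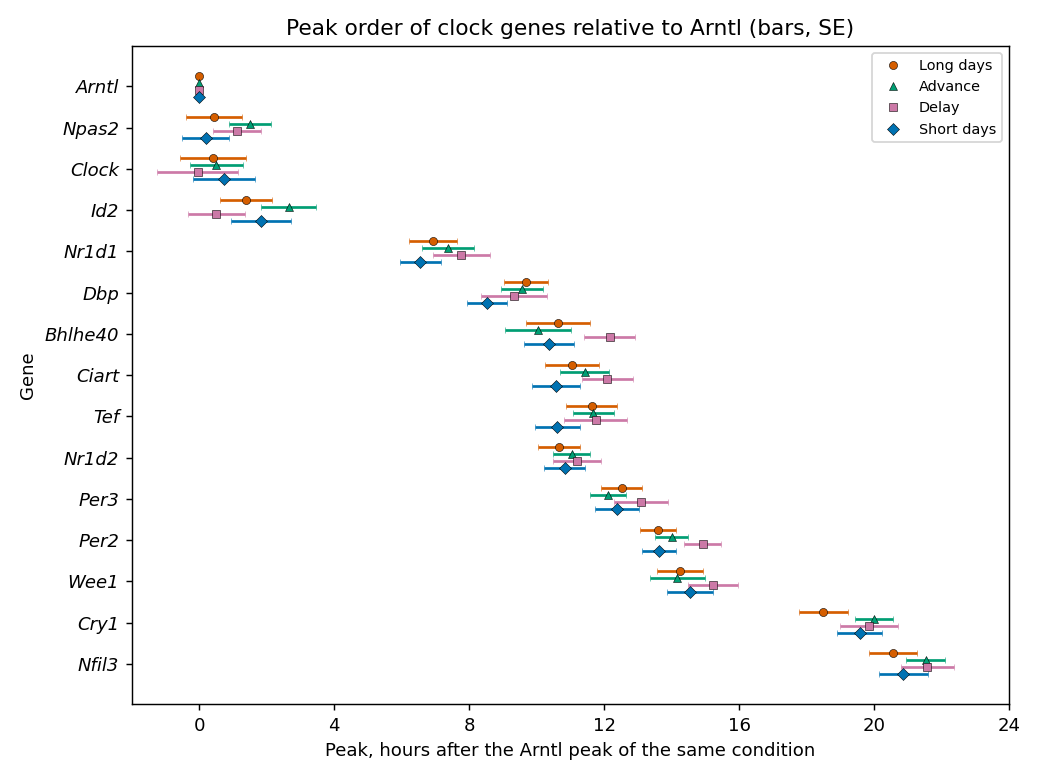
Peak of each gene in hours after the Arntl peak of the same condition, for long days, advance, delay and short days, with bars of 1 SE. Clock, Npas2 and Id2 lie next to Arntl, Nr1d1 follows at 6.56 to 7.77 h, and Cry1 and Nfil3 come last.

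In the list of REV-ERB and ROR factors and the genes they control, 7 of 8 were analysed here, and 4 varied over the day in long days (1.63% of all genes), 5 in advance (2.58%), 4 in delay (1.52%) and 4 in short days (8.91%). Nfil3, a repressor whose gene is itself held down by REV-ERB proteins, peaked 20.6 h after Arntl in long days, 21.5 h in advance, 21.6 h in delay and 20.9 h in short days. Rora, which encodes an activator of Arntl, did not pass in any of the 4 (limma, adjusted p of at least 0.421). Ppargc1a, a coactivator of the ROR proteins, did not pass either (at least 0.219).

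Of 24 listed partners and modifiers of the activators, 19 were analysed here, and 2 varied over the day in long days, 1 in advance, 2 in delay and 2 in short days. With 1.63%, 2.58%, 1.52% and 8.91% of all genes called in the same order, the short-day count is near that background. Id2, an inhibitor of helix-loop-helix factors, passed in all 4 and peaked 1.40 h after Arntl in long days, 2.65 h in advance, 0.50 h in delay and 1.83 h in short days. Among 16 other factors of the bHLH-PAS family, to which all 3 activators belong, 1 passed in long days (1.63% of all genes), 0 in advance (2.58%), 0 in delay (1.52%) and 3 in short days (8.91%). The counts of both lists are those of limma with all 48 arrays. At an unadjusted p below 0.05 those of the 16 other bHLH-PAS factors were 3 in long days, 3 in advance, 2 in delay and 6 in short days. Over all 18194 genes the unadjusted counts were 1705, 2199, 2101 and 4657 in the same order. Arntl2, the paralog of Arntl, did not pass in any condition (adjusted p of at least 0.762).

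Over the 24 group means, centred within each condition, Arntl was most like Fgd3 (r = 0.96), Leo1 (0.95), Adamts15 (0.94), Phlda1 (0.94) and Clock (0.94). Fgd3 encodes an exchange factor of small GTPases and Leo1 a subunit of the PAF1 complex. Clock was most like Fgd3 (0.94), Arntl (0.94), Rbm45 (0.91), Phlda1 (0.91) and Npas2 (0.90), and Npas2 most like Kcna2 (0.93), Arntl (0.92), Clock (0.90), Fgd3 (0.90) and Rbm45 (0.89). Per3 (-0.97), Tef (-0.95), Nr1d2 (-0.95), Tspan4 (-0.95) and Herpud1 (-0.91) ran most opposite to Arntl. These are descriptions over group means that share arrays, and genes of a similar phase rank together.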

How the data were processed

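RNA of 48 pools was hybridised to expression arrays, and the authors deposited log2 values per probe set, summarised by RMA under R 2.8.0, according to the labels and per the submitters' processing notes. Background correction, normalization and summary were done before deposit. Of 45101 probe sets 34958 carried a single symbol in the probe annotation, and the one with the highest mean stood for each of 18194 genes. Probe set levels were not compared between genes.

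A mean per group of 2 arrays was fitted to all genes with limma 3.58.1 (R 4.3.3), variances moderated with a trend, two-sided tests, Benjamini-Hochberg adjustment over all genes and a threshold of 0.05. Peaks came from a 24 h cosine, with SE by the delta method. The pipeline was tested on simulated data. Arrays, 2 per time point, limit the precision. The p-values rest on the spread between arrays of a time point, pooled for each gene over all 24 groups. They do not measure the spread of the compared arrays alone. The labels do not tie a replicate number to one run of the experiment, and the main fit has no block: deviations of same-numbered arrays correlated above 0.1 in 98 of 276 pairs of groups, but within a condition in 14 of 15 pairs in long days, 6 in advance, 11 in delay and 3 in short days. Fits with the number as a block are given where they change a call. The genes named are the 3 activators, the 5 genes most like each, the 5 most opposite to Arntl, Arntl2 and up to 6 per list with the smallest short-day p. The members and lists were chosen with earlier results of these data known, and Rorb, Rora, Ppargc1a and single times of day were picked after their values were seen. Some listed genes were not analysed here. Starts came from RefSeq promoter windows, 32851 in all.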

Additional observations from a re-analysis of the deposited data

Results flagged for a closer look

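Differences in daily course between lighting conditions drew attention because the test of the difference itself passed (limma, adjusted p). Between long and short days by ZT this held for Arntl (3.08e-09), Clock (0.00806) and Npas2 (7.58e-11), and by clock time for Arntl (6.22e-04) and Npas2 (2.59e-05). Between delay and short days it held for Arntl (0.0104) and Npas2 (3.68e-07), and between advance and delay for Arntl (0.0298) and Npas2 (4.80e-05). No array group was large enough for a test of single outlying arrays.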

How the results depend on the processing

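Other probe sets changed the most. With the other probe set of Arntl, daily variation gave adjusted p = 0.447 in long days, 0.623 in advance, 0.737 in delay and 0.368 in short days, and the courses 0.158 (long against short days by ZT), 0.821 (by clock time), 0.423 (delay against short days) and 0.965 (advance against delay). Its day mean was -0.14 in advance and -0.27 in delay relative to short days, and its peaks ZT 0.915, 18.4, 23.6 and 17.1 in long days, advance, delay and short days. With the other probe set of Npas2 these were 0.773, 0.929, 0.195 and 0.0977 for daily variation, 0.126, 0.821, 0.0568 and 0.746 for the same courses, -0.15 for the delay day mean, and ZT 1.14, 16.96, 5.27 and 18.0 for the peaks. For Clock, 1 probe set gave 0.0633 for daily variation in advance and day means 0.18 in advance and 0.14 in delay above short days. Another gave 0.25 and 0.18, 0.0938 for the course by ZT and peaks at ZT 23.3, 16.5, 20.5 and 16.3, and the dimmest gave 0.33 and 0.30, 0.425 and 0.192 for daily variation in advance and short days, 0.489 for the course by ZT and peaks at ZT 3.97, 18.6, 19.8 and 15.7. The mean of all probe sets turned the Clock day means to 0.19 in advance and 0.15 in delay, with peaks at ZT 18.2 in advance and 17.5 in short days. It gave Npas2 day means of -0.075 in advance (called) and -0.0031 in delay, and 0.0538 for the Arntl course of advance against delay.

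A cosine in place of group means gave 0.0226 for Clock in long days, 0.0705 for Arntl and 0.356 for Npas2 between advance and delay, and 0.0748 for Npas2 by clock time. Adding a 12 h harmonic moved the Arntl peak to ZT 19.6 in advance, 22.4 in delay and 19.6 in short days, the Clock peak in short days to 20.3, and the Npas2 peak to 0.6 in delay and 20.5 in short days. Daily variation of Clock in long days passed with the replicate block (adjusted p = 0.0123), with a block within condition (0.00873) and with the actin covariate (0.0233). These blocks changed no other call of the 3 genes. Over all genes the block raised the calls between delay and short days to 578, and within condition to 867, against 335 without a block. The block within condition also moved, by over 1.5 times, daily variation in advance (736 against 470 genes), delay (497 against 276) and short days (2838 against 1621), the long-against-short courses by ZT (1265 against 782), clock time (138 against 85) and lights-off (109 against 50), advance against delay (199 against 132) and the delay step (11 against 7). The actin covariate took the Clock day mean of long minus short days to 0.0054, and centring arrays took short-day variation of Clock to 0.0743. Leaving out 1 array at a time gave 0.0112 to 0.123 for Clock in short days, 0.0258 to 0.102 for Arntl and 0.0424 to 0.539 for Npas2 (advance against delay and against short days), a Npas2 delay day mean of 0.11 to 0.18 and a long-day Arntl peak of ZT 1.48 to 2.66. The cause of these changes was not tested.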
